A study of Sus scrofa with 12 samples.

Results

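Bile duct epithelial markers were compared in the liver of Jinhua (JH) and Landrace (LD) pigs, together with SCT and CDHR5, a pair of genes that lie beside each other in the pig genome. The genes were chosen by their RPKM in JH against LD in these same 6 libraries, so for these genes the breed difference is described and not tested. The names were KRT7, KRT19, EPCAM, SOX9, SPP1, CFTR, SCT and CDHR5, 8 in all, and 6 of them had a row of the same symbol among the 31694 genes listed in each library. KRT7 and KRT19 had no such row and were dropped from the counts. Rows filed under their NCBI gene IDs were found after the values had been seen, and are described apart.

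Each breed was represented by 3 uncastrated males of 70 days of age, with 1 mRNA library and 1 small RNA library from the liver of each pig, named JH1 to JH3 and LD1 to LD3. The study took LD as the control group. No treatment or engineered allele was given for either breed. The breeds differ across their whole genetic background, and whole liver tissue was sampled, so every value is an average over all cell types of the piece taken.

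Cholangiocytes are the epithelial cells that line the bile ducts, and they are a small minority beside hepatocytes. They adjust bile by secreting chloride and bicarbonate when secretin, a peptide hormone known chiefly from the duodenum and also made by cholangiocytes, binds its receptor and raises cyclic AMP, which opens the chloride channel CFTR. Their keratins, their adhesion molecule EPCAM and the transcription factor SOX9 set them apart from mature hepatocytes, while CDHR5 is a cadherin that links the tips of microvilli in the brush border of absorptive epithelia such as those of the intestine and kidney.

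Levels of mRNA are given as RPKM, which are reads scaled to gene length and to library size and so are comparable between genes. The read totals behind the RPKM values, recovered from the spacing of the values themselves, lay between 5744991 and 7914517 per library. Fold changes are JH over LD on log2(RPKM + 0.1). A gene was tested where at least 3 libraries reached an RPKM of 0.5, which 12993 genes did. It was called a DEG at a Benjamini-Hochberg adjusted p below 0.05 in limma with an absolute log2 fold change above 1. By this rule 310 genes (2.39% of those tested) were DEGs, of which 177 were lower in JH (1.36%) and 133 higher (1.02%). Over all tested genes the log2 fold changes had a median of 0.04.

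All 6 chosen genes with a row had a lower mean in JH than in LD. For 5 of them, EPCAM, SOX9, CFTR, SCT and CDHR5, each JH library lay below each LD library, while the breeds overlapped for SPP1. CFTR failed the filter on low values and was not tested. SCT passed that filter only through LD, so it had to differ. Of the 5 tested, EPCAM, SCT and CDHR5 were called and lower in JH, and SOX9 and SPP1 were not called. The background was 2.39% of tested genes called in either direction and 12.5% with all JH values below all LD values, but nothing is read from this contrast because the same difference brought the genes onto the list. In bulk tissue, fewer cells of a type and less RNA per cell cannot be told apart.

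EPCAM, the epithelial cell adhesion molecule, stood at 1.27, 1.31 and 1.32 RPKM in JH1, JH2 and JH3 and at 3.69, 5.17 and 3.31 RPKM in LD1, LD2 and LD3. The JH values were nearly equal and all lay well under the lowest LD value. The means were 1.30 ± 0.028 RPKM in JH and 4.06 ± 0.979 in LD (SD, n = 3 each), an LD to JH ratio of 3.12 and a log2 fold change of -1.55 (SE 0.28). These values rest on few reads, 5, 7 and 7 in JH against 18, 28 and 18 in LD.

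SOX9, a transcription factor needed for bile duct development, was at 0.660, 0.349 and 0.140 RPKM in JH1 to JH3 and at 1.14, 3.98 and 1.10 RPKM in LD1 to LD3. LD2 was far above the other LD libraries, and the breeds did not overlap. The means of 0.383 ± 0.262 and 2.07 ± 1.65 RPKM gave a ratio of 5.41, and the log2 fold change was -2.07 (SE 0.62). Leaving out 1 library at a time moved it between -2.47 and -1.49.

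SPP1 encodes osteopontin, a secreted phosphoprotein that biliary epithelium and also macrophages and stromal cells can make. It was the highest of the markers in JH, at 9.21, 13.8 and 5.53 RPKM, against 29.1, 25.4 and 9.82 RPKM in LD. JH2 exceeded LD3, so the breeds overlapped. The mean was 9.51 ± 4.14 RPKM in JH and 21.4 ± 10.2 in LD, a log2 fold change of -1.11 (SE 0.46).

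CFTR, the cyclic AMP-regulated chloride channel of the apical duct membrane, had a lower mean than EPCAM, SOX9 and SPP1 in each breed. Its levels were 0.198, 0.264 and 0.0881 RPKM in JH, from 5, 9 and 3 reads, and 1.25, 0.489 and 0.832 RPKM in LD, from 39, 17 and 29 reads. The breeds did not overlap, with means of 0.183 ± 0.0886 and 0.856 ± 0.380 RPKM and a difference of -1.73 between the breed means of log2(RPKM + 0.1).

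KRT19, the keratin most often used to stain bile ducts, was found under its gene ID as LOC100515339. Its levels were 4.71, 4.30 and 2.24 RPKM in JH and 18.9, 13.3 and 6.84 RPKM in LD. The breeds did not overlap, with means of 3.75 ± 1.32 and 13.0 ± 6.02 RPKM and a log2 fold change of -1.72 (SE 0.42), which was not called. The row under the gene ID of KRT7, LOC100626722, was listed at 0 in all 6 libraries. An RPKM of exactly 0 may be a failed estimate in these files, since APOB, the main apolipoprotein that hepatocytes secrete, was also listed at 0 in all 6 liver libraries.

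SCT, the gene for secretin, was listed at 0 in all 3 JH libraries and at 2.18, 3.27 and 4.57 RPKM in LD1, LD2 and LD3, with an LD mean of 3.34 ± 1.195. Among the gene lengths searched, the shortest that matches these values within 0.03 read gives 6, 10 and 14 reads in LD, 30 together. A length below the range searched matches as well, with fewer reads. Only the LD values constrained this match, and 0.041 matches were expected by chance, so these reads are less certain than those of the other genes. With 0 reads in JH, up to 3 reads per library remain possible. At the length found, this is 1.35, 0.999 and 1.00 RPKM in JH1 to JH3, and at a shorter length it would be more. A separate limit took 3 reads over the JH libraries together and the 30 LD reads as exact. SCT was then 9.27-fold higher in LD, and fewer LD reads would lower this limit. These limits cover counting error in JH only, and reads are not independent molecules.

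CDHR5 was at 4.17, 4.04 and 1.41 RPKM in JH1 to JH3 and at 61.7, 69.7 and 60.2 RPKM in LD1 to LD3. The LD values lay close together, and even the highest JH value was a small part of the lowest LD value. The means were 3.21 ± 1.56 and 63.9 ± 5.08 RPKM, a ratio of 19.9 and a log2 fold change of -4.42 (SE 0.39), from 25 to 72 reads in JH and 1005 to 1262 in LD. Ordered by fitted fold change, CDHR5 was the 16th lowest in JH of the 12993 tested genes and SCT the 10th, although the fitted value of SCT depends on the pseudocount.

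**Figure D1:**
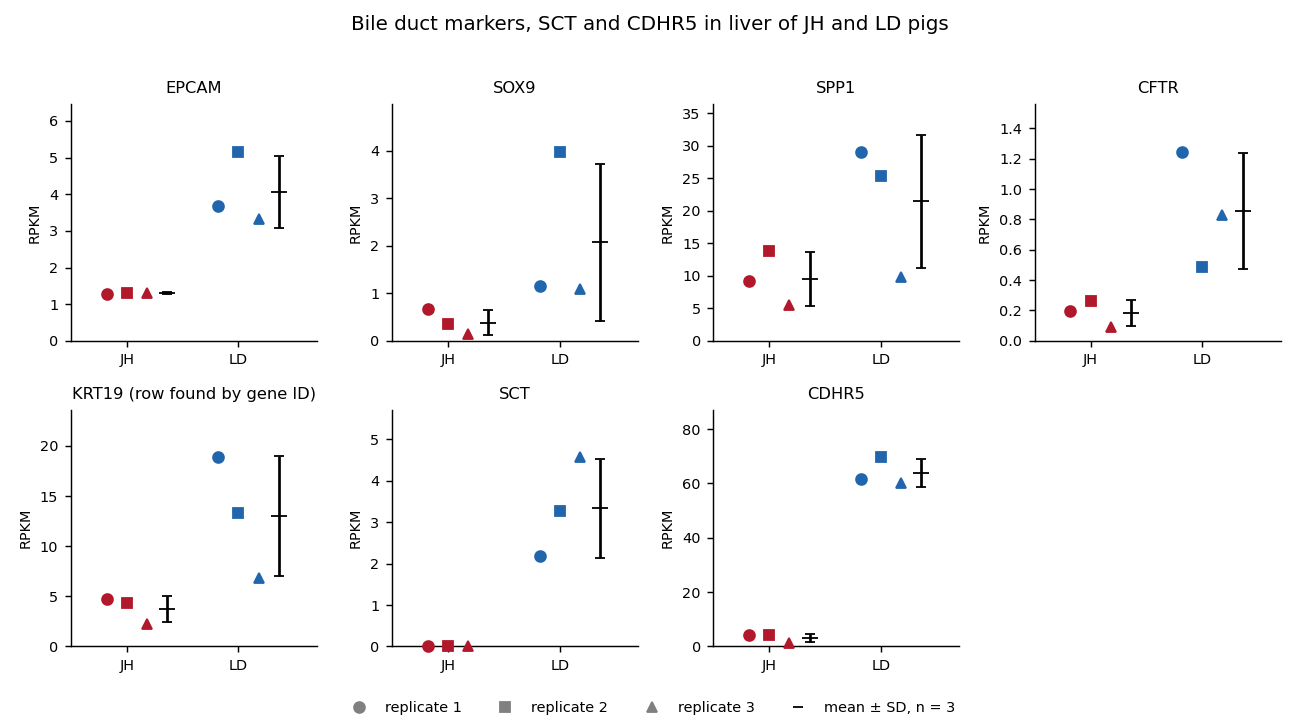
RPKM per library (y axis, linear, starting at 0) in JH (red) and LD (blue) for the chosen genes with values, each panel on its own scale. Marker shapes give the replicate number and the black bar gives the mean with SD, n = 3, left out for SCT in JH, which was listed at 0. Every gene except SPP1 has all JH points below all LD points, and CDHR5 has the widest gap, with means of 3.21 and 63.9 RPKM.

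The order of levels differed between the breeds. In each JH library SPP1 was above CDHR5, while in each LD library CDHR5 was the highest of the chosen genes. Within a breed the duct markers did not share 1 order of libraries. JH3 was the lowest JH library for 4 of the 5 genes with values above 0 in JH, and LD3 was the lowest LD library for 4 of 6. JH3 and LD3 were also the libraries of their breeds with the highest level of RN18S, the 18S ribosomal RNA. RN18S stood at 5991, 1570 and 62257 RPKM in JH1 to JH3 and at 7309, 2108 and 20160 RPKM in LD1 to LD3, so it varied widely within each breed and the breeds overlapped. Its part in the levels above was not tested.

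The same contrast was read for other genes of duct epithelium, from a list of 28 names, of which 27 had a row and 17 passed the filter. MMP7 and ANXA4 were called lower in JH and 0 genes were called higher. That is 2 of 17, beside 1.36% of all tested genes called lower in JH. At an unadjusted p below 0.05, 10 of 17 were lower in JH and 0 higher, beside 9.51% of all tested genes lower at that limit. The median log2 fold change of the 17 was -1.15, with 14 values below 0 (47.1% of all tested genes) and a range from -2.45 to 0.79. In 9 of the 17, all JH values lay below all LD values, beside 12.5% of all tested genes. SPINT1 and BICC1, which were not called, are among the 10 and the 9. They passed the filter only through LD, so they had to differ.

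MMP7, a secreted metalloproteinase of duct and glandular epithelia, stood at 3.10, 5.24 and 2.85 RPKM in JH and at 23.8, 20.4 and 10.6 RPKM in LD. The lowest LD value was above the highest JH value. Its log2 fold change was -2.23 (SE 0.36, limma adjusted p = 0.019). The call was lost without JH1, LD1 or LD2, with an adjusted p of up to 0.095.

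ANXA4, an annexin that is abundant in duct and other secretory epithelia, stood at 10.9, 11.8 and 11.7 RPKM in JH and at 26.2, 28.7 and 22.3 RPKM in LD. Both breeds varied little, and its log2 fold change was -1.15 (SE 0.23, limma adjusted p = 0.037). The call was kept only without JH3 among the fits that left out 1 library, with an adjusted p between 0.047 and 0.137.

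Among the genes that were not called, the furthest from 0 were SPINT1, BICC1, PROM1 and SOX4. SPINT1, an inhibitor of epithelial serine proteases, was at 0.194, 0 and 0.0480 RPKM in JH and at 0.679, 1.36 and 0.516 in LD, with a log2 fold change of -2.45 (limma adjusted p = 0.115). BICC1, an RNA-binding protein whose loss gives cystic kidneys and ducts, had a log2 fold change of -2.01 (limma adjusted p = 0.171). PROM1, the stem and duct cell surface protein CD133, was at 0.0979, 0.652 and 0.545 RPKM in JH and at 1.98, 2.46 and 1.03 RPKM in LD. In each of these the breeds did not overlap, yet the spread within a breed was wide at such low levels.

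SOX4, a transcription factor that acts with SOX9 in bile duct development, was at 1.37, 0.902 and 1.41 RPKM in JH and at 4.26, 6.17 and 2.55 RPKM in LD. The breeds did not overlap, and its log2 fold change of -1.68 (SE 0.37) fell just short of the threshold (limma adjusted p = 0.052). The 3 genes of the list with a value above 0 were KRT18 at 0.15, CLDN3 at 0.23 and CLDN4 at 0.79 on the log2 scale, and KRT8, the partner of KRT18, was at -0.16. They were picked out after their values were seen. KRT8 and KRT18 are also the keratins of hepatocytes and were abundant, with KRT8 at 175 to 253 RPKM in JH and 154 to 353 in LD. The 10 rows that failed the filter reached at most 1.08 RPKM, and CDH1 and DEFB1 were listed at 0 throughout.

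**Figure D2:**
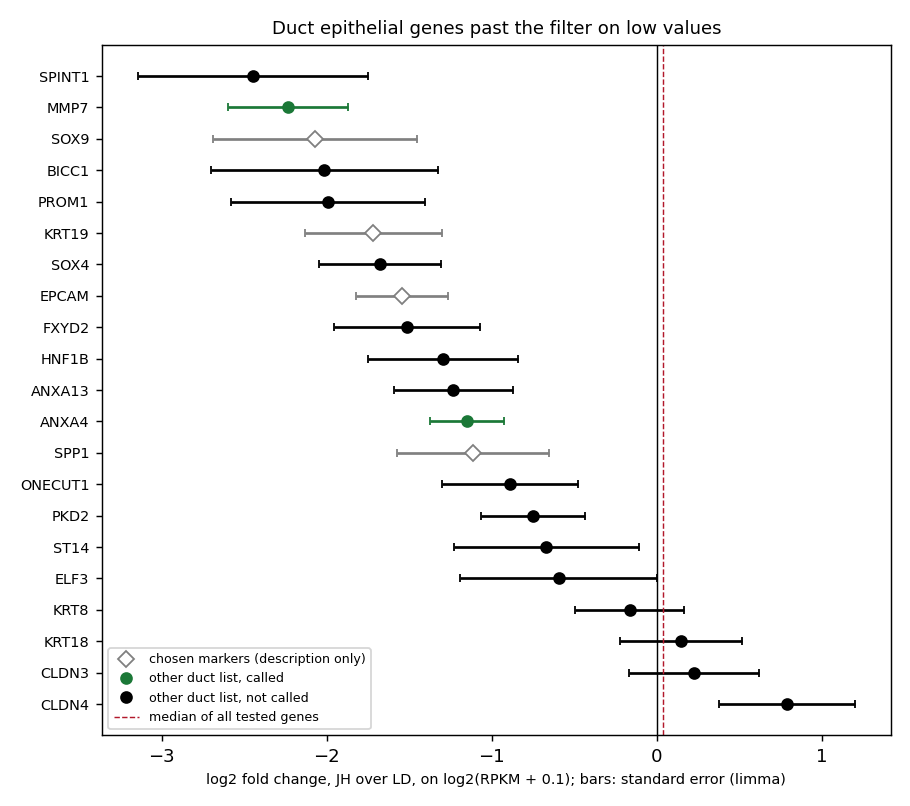
Log2 fold change of JH over LD (x axis) with its limma standard error for the duct epithelial genes that passed the filter, ordered by value. Open diamonds are the chosen markers, shown as a description, green points are the called genes MMP7 and ANXA4, black points were not called, the solid line marks 0 and the dashed line the median of all tested genes, 0.04. Most points lie left of both lines, and KRT18, CLDN3 and CLDN4 lie to the right.

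A measure that the list did not use came from the small RNA libraries of the same pigs. The miR-200 family is a group of epithelial miRNAs that repress the ZEB transcription factors. One of its members, ssc-miR-429, had a row and the other 4 names had none. The study of these same libraries had already discussed miR-429, with SCD as a predicted target, in its network of differentially expressed miRNAs. A breed difference of this miRNA was therefore known before it was read here. miRNAs were tested on log2(RPM + 0.5), where RPM is reads scaled to the clean reads of the library. They were called at an unadjusted p below 0.05 with an absolute log2 fold change above 1. By this rule 30 of 241 miRNAs were called (12.4%), of which 25 were lower in JH (10.4%) and 5 higher (2.07%). Of the 241, 76.8% had a log2 fold change below 0, with a median of -0.30. This median was 0.06 after quantile normalization and 0.09 after median scaling, so its place below 0 depended on the scaling.

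ssc-miR-429 stood at 3.17, 2.21 and 2.16 RPM in JH and at 10.6, 12.1 and 7.54 RPM in LD, from 40, 27 and 23 reads against 141, 154 and 105. The breeds did not overlap, as in 29.9% of all tested miRNAs in this direction. The means were 2.51 ± 0.568 and 10.1 ± 2.33 RPM (SD, n = 3 each), with a log2 fold change of -1.80 (SE 0.29, limma adjusted p = 0.00436). It was called in 6 of 6 fits that left out 1 library, with log2 fold changes from -1.99 to -1.66. It was -1.46 after quantile normalization and -1.41 after median scaling, and it missed the limit of 1 only with a pseudocount of 5.

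The miR-30 family, which is known from bile duct development in fish and mouse, was tested in the same fit. All 9 of its miRNAs passed the filter, 0 were called, and 0 passed an unadjusted p of 0.05 in limma, beside 12.4% and 29.9% of all tested miRNAs. Their log2 fold changes ran from -0.41 to -0.11 with a median of -0.23, close to the median of all miRNAs, and the breeds overlapped in each.

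**Figure D3:**
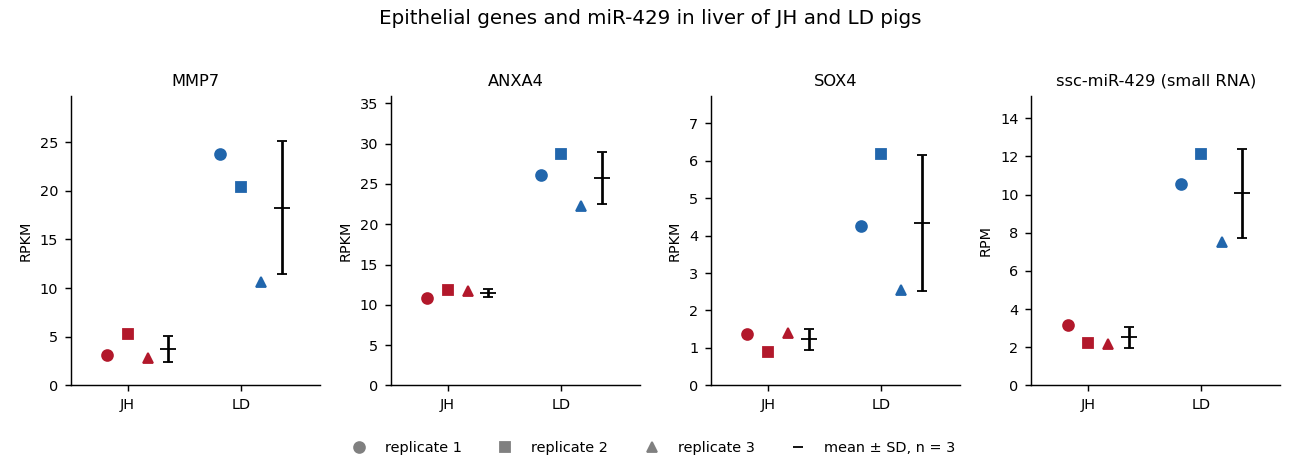
Levels per library of MMP7, ANXA4 and SOX4 (RPKM) and of ssc-miR-429 (RPM) on linear y axes that start at 0, with JH in red, LD in blue and the mean with SD, n = 3, in black. In each panel all JH points lie below all LD points, with ANXA4 tight within breeds and ssc-miR-429 at 2.16 to 3.17 RPM against 7.54 to 12.1 RPM.

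A list of genes of secretin action and of other transport and signalling in ducts gave no DEGs. All 23 names on that list had a row and 13 passed the filter. Of these 0 were called and 0 passed an unadjusted p of 0.05 in limma, beside 2.39% and 17.9% of all tested genes. Their log2 fold changes ran from -0.88 for PRKACB, a catalytic subunit of protein kinase A, to 0.49 for ADCY9, an adenylyl cyclase. Their median was -0.27, with 11 of 13 below 0, beside 47.1% of all tested genes. The anion exchanger SLC4A2, which exports bicarbonate into bile, was at 18.2, 20.0 and 13.3 RPKM in JH and at 15.6, 20.5 and 13.4 RPKM in LD. Its log2 fold change was 0.06 (SE 0.27, limma adjusted p = 0.932). The level in duct cells alone cannot be read from whole liver.

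The secretin receptor SCTR failed the filter. It was at 0, 0 and 0.328 RPKM in JH and at 1.96, 0.803 and 0.160 RPKM in LD, from 2 reads in all of JH and 11, 5 and 1 reads in LD. JH3 was above LD3, so the breeds overlapped, and a difference could not be judged at this depth. AQP1, the water channel of duct cells, was listed at 0 in every library, as were SLC9A3, GPBAR1, P2RY2 and SLC51B.

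Notch and YAP signals direct hepatoblasts toward the biliary fate. Of 18 names on this list 14 had a row and 12 were tested, with 0 called in limma. At an unadjusted p below 0.05, 4 were lower in JH. The background was 2.39% of all tested genes called and 9.51% lower at the unadjusted limit. These 4 were NOTCH2 at a log2 fold change of -1.10 (adjusted p = 0.141), NOTCH3 at -0.90 (adjusted p = 0.215), the Notch ligand JAG1 at -0.87 (adjusted p = 0.198) and the Notch target HEYL at -0.76 (adjusted p = 0.224). The receptor NOTCH2 stood at 1.45, 1.52 and 3.20 RPKM in JH and at 3.73, 4.13 and 4.98 in LD, without overlap, and it was called without JH3 (adjusted p = 0.042). The median of the 12 was -0.45, and 11 were below 0, beside 47.1% of all tested genes. In 6 of the 12 all JH values lay below all LD values, beside 12.5% of all tested genes.

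In the brush border, CDHR5 joins CDHR2 and is anchored by USH1C, ANKS4B and MYO7B. Of 13 names for this complex and for the microvillus core, 12 had a row and 8 were tested. USH1C, the scaffold protein harmonin, was called and higher in JH, the opposite direction to CDHR5, and 0 were called lower. That is 1 of 8, beside 1.02% of all tested genes called higher in JH. It stood at 4.80, 2.61 and 2.02 RPKM in JH and at 0, 0.116 and 0.116 RPKM in LD, from 30, 22 and 17 reads against 0, 1 and 1. Its log2 fold change was 4.18 (SE 0.53, limma adjusted p = 0.00665). It passed the filter only through JH, so it had to differ, and nothing further is read from this call.

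The direct partner CDHR2 was listed at 0 in JH and at 0.101, 0.333 and 0.181 RPKM in LD, and was not tested. The adaptor ANKS4B was at 1.73, 3.61 and 3.85 RPKM in JH and at 1.46, 3.43 and 1.14 in LD, with overlap and a log2 fold change of 0.66 (limma adjusted p = 0.494). VIL1, the actin bundler villin, found by gene ID, was at 13.8, 9.60 and 11.3 RPKM in JH and at 9.27, 7.46 and 3.41 in LD, with a log2 fold change of 0.88 (limma adjusted p = 0.257). The other genes furthest from 0 were the actin bundler ESPN at -0.60 and the ezrin adaptor SLC9A3R1 at 0.26. The median of the 8 was 0.19, with 6 above 0.

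**Figure D4:**
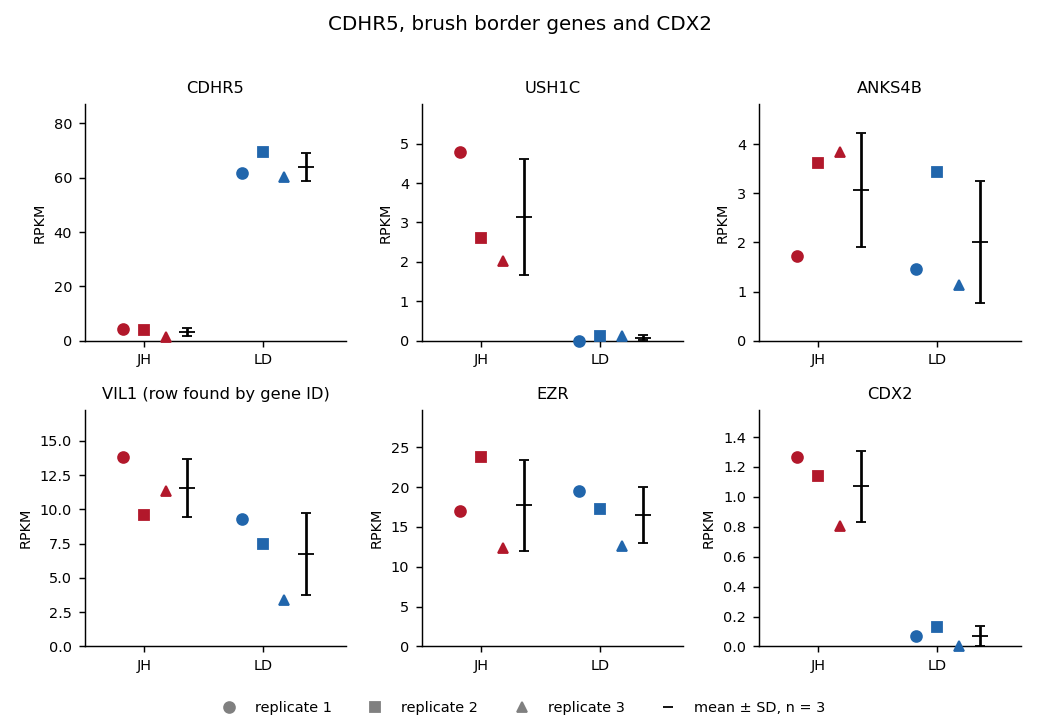
RPKM per library for CDHR5, 4 genes of the brush border and CDX2 on linear y axes that start at 0, with JH in red, LD in blue and the mean with SD, n = 3, in black. CDHR5 is lower in JH, USH1C and CDX2 are higher in JH, VIL1 has all JH points above all LD points without being called, and ANKS4B and the linker protein EZR overlap between breeds.

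SCT and CDHR5 were then set beside the 10 named genes on each side in RefSeq order (assembly Sscrofa11.1, used only for which genes neighbour each other, since the values were made on Sus scrofa 10.2). Of these 20 names 13 had a row and 8 were tested. In limma 0 were called and 1, the mitochondrial glutamate carrier SLC25A22, passed an unadjusted p of 0.05, with a log2 fold change of 0.96 (adjusted p = 0.165). Over all tested genes 2.39% were called and 17.9% passed the unadjusted limit. The median of the 8 was 0.38, from -0.35 to 0.96.

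The nearest gene with a row on the CDHR5 side was IRF7, an interferon regulator, at 15.04, 74.3 and 6.85 RPKM in JH and 28.0, 12.5 and 13.5 in LD, with a log2 fold change of 0.24 (SE 0.74). JH2 was far above the other libraries. PHRF1 on the same side had a log2 fold change of 0.47, and MIR210, the gene of miR-210, was listed at 0 in all 6 libraries. The mature ssc-miR-210 was read in the small RNA libraries, at 7.20, 12.7 and 7.59 RPM in JH and 14.2, 7.94 and 12.4 in LD, with overlap. On the SCT side DRD4, a dopamine receptor, was listed at 0 throughout, the transcription factor DEAF1 had a log2 fold change of -0.35 and TMEM80 one of 0.52. Whether reads were counted by strand is not given in the sources used here, so reads from stretches where neighbouring genes overlap cannot be told apart.

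**Figure D5:**
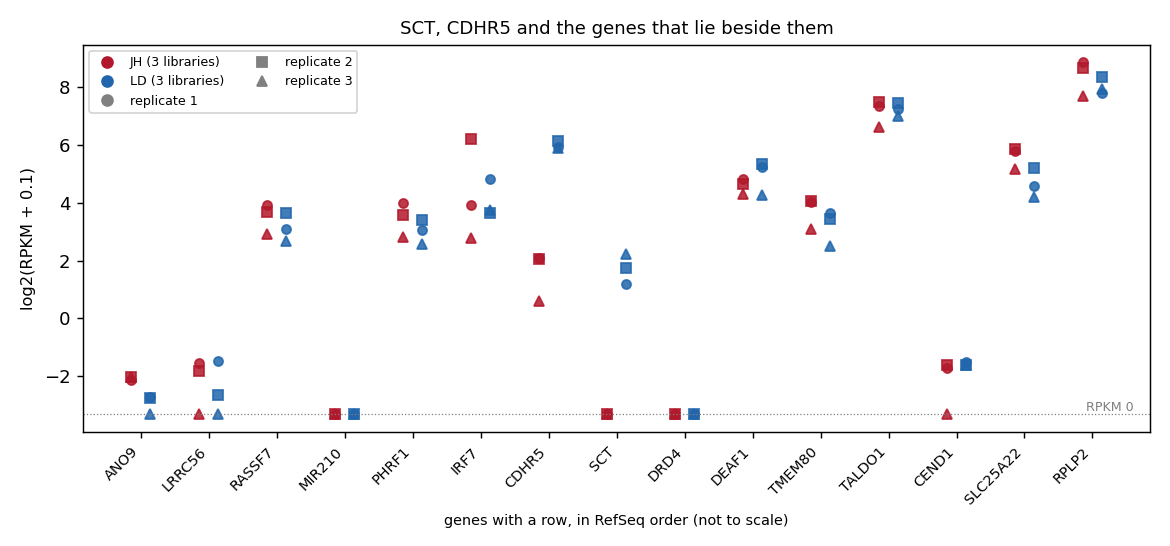
log2(RPKM + 0.1) per library (y axis) for SCT, CDHR5 and the neighbouring genes that had a row, in RefSeq order and not to scale, with JH in red and LD in blue. The dotted line marks an RPKM of 0. CDHR5 and SCT, which were chosen for this difference, show JH points well below LD points. Among their neighbours the breeds overlap except for ANO9, a gene at 0.143 RPKM or less in every library. Most genes overlap, since 12.5% of all tested genes had all JH values below all LD values and 10.8% all above.

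The genes whose levels over the 6 libraries were most like those of SCT and CDHR5 were found by the root mean square difference of log2(RPKM + 0.1) after centring each gene. For SCT the closest were LOC102165999 at 0.38, LOC102159989 at 0.48, SERPINA6 at 0.49, LOC100628173 at 0.55 and UGT1A10 at 0.62. For CDHR5 they were SERPINA6 at 0.48, UGT1A10 at 0.52, TPPP3 at 0.58, LOC100513976 at 0.59 and GTSF1 at 0.61. SCT and CDHR5 were each the 7th closest to the other, at 0.66. Both were chosen for being lower in JH, so nothing is read from their closeness. LOC102165999, LOC102159989, LOC100628173, UGT1A10, TPPP3 and GTSF1 passed the filter only through LD, so they had to differ. SERPINA6, the corticosteroid-binding globulin of the liver, was at 17.3, 14.1 and 14.8 RPKM in JH and 312, 317 and 299 in LD. UGT1A10 belongs to a family whose members share sequence, so its reads are uncertain.

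Markers of other cell types were read in the same libraries. Of 8 stellate cell and fibroblast markers, all tested, 3 were called, each lower in JH, beside 1.36% of all tested genes, and 0 were called higher. At an unadjusted p below 0.05 in limma, 5 of 8 were lower in JH, beside 9.51% of all tested genes. In 5 of 8 all JH values lay below all LD values, beside 12.5% of all tested genes. LUM is among both counts, but it passed the filter only through LD, so it had to differ. The only value listed at 0 was LUM in JH1. The 8 markers had a median log2 fold change of -1.60, all 8 below 0, beside 47.1% of all tested genes. Their summed level ran from 53.4 to 74.1 RPKM in JH and from 155 to 289 RPKM in LD. COL1A1, a chain of type I collagen, was at 4.71, 7.93 and 6.81 RPKM in JH and 31.7, 89.7 and 29.4 in LD, with a log2 fold change of -2.77 (SE 0.43, limma adjusted p = 0.014), a call that held whichever library was left out. COL3A1, a chain of type III collagen, had a log2 fold change of -1.75 (limma adjusted p = 0.016), lost without LD1 or LD2. LRAT, the retinol-esterifying enzyme of stellate cells, had one of -1.72 (limma adjusted p = 0.038), kept only without JH3. The other 5, among them DCN, RGS5 and DES with overlapping breeds, were not called. The part of stromal cells in the duct values was not tested.

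Of 10 hepatocyte markers 9 were tested, 0 were called in limma, and 3 were lower and 1 higher in JH at an unadjusted p below 0.05, beside 2.39% of all tested genes called and 17.9% past the unadjusted limit in either direction. Their summed level was 42749 to 47824 RPKM in JH and 62659 to 78454 RPKM in LD, largely from ALB at a log2 fold change of -0.67 (limma adjusted p = 0.258). Of 8 macrophage markers 7 had a row and 4 were tested, with 0 called, beside 2.39% of all tested genes. At an unadjusted p below 0.05 in limma 2 were higher in JH and 0 lower, beside 17.9% of all tested genes in either direction. The macrophage markers summed to 301 to 769 RPKM in JH and 449 to 504 in LD, largely from C1QA at a log2 fold change of -0.20. The other tested markers MARCO, C1QB and CSF1R had log2 fold changes of 0.60, 1.76 and 1.23, with overlapping breeds in each. CD163 and GPNMB were listed at 0 in all libraries, and CD68 had no row.

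Of 15 intestinal and enteroendocrine markers, CDX2 alone passed the filter and 9 were listed at 0 in all libraries. CDX2, the intestinal homeobox factor, was at 1.27, 1.14 and 0.806 RPKM in JH and 0.0732, 0.132 and 0 in LD, with a log2 fold change of 2.86 (SE 0.60, limma adjusted p = 0.046). It passed the filter only through JH and so had to differ, and even so the call was lost in each of the 6 fits that left out 1 library. The other 14 reached at most 0.331 RPKM, and FABP2, the intestinal fatty acid binding protein, was at 0 except for 0.208 RPKM in LD3. The summed level of the list was 0.806 to 1.46 RPKM in JH and 0.436 to 0.722 in LD. Of 7 pancreas markers with a row and 3 of mesothelium 0 passed the filter, with highest values of 0.310 and 0.663 RPKM. GPC3 and AFP were tested among 4 hepatic progenitor markers, with log2 fold changes of -0.61 and -0.10. In limma 0 were called and 0 passed an unadjusted p of 0.05, beside 2.39% and 17.9% of all tested genes.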

How the data were processed

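Liver of 3 JH and 3 LD pigs gave 1 mRNA and 1 small RNA library per pig, grouped by the breed and number in the sample labels. The authors aligned 50 bp single mRNA reads to Sus scrofa 10.2 with Tophat (TopHat2 2.0.13 in the submitters' processing notes), counted them with gfold, and the deposited values are RPKM, reads scaled to gene length and library size. For miRNAs the authors scaled reads to the clean reads of the library and deposited RPM (10672377 to 13932324 per library, recovered from the steps of the values).

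No deposited file holds read counts, so limma 3.58.1 in R 4.3.3 (lmFit, eBayes with trend) was run on log2(RPKM + 0.1) for genes at 0.5 RPKM or more in at least 3 libraries. For miRNAs it was run on log2(RPM + 0.5), with a minimum of 1 RPM in at least 3 libraries. P-values were Benjamini-Hochberg adjusted over all 12993 genes or 241 miRNAs. Whole reads behind the RPKM were found by searching for a read total per library and a length per gene. The length had to make all values of the gene above 0 whole within 0.03 read. The shortest length that did so in the range searched was taken. These reads describe depth and entered no test. The scripts were tested on simulated data, in Python 3.11.15 with numpy 2.4.6, pandas 2.3.3 and scipy 1.17.1, and plots were made with matplotlib 3.10.9.

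The genes described and the gene lists were chosen with earlier results of these data known. Names without a row of their own symbol were matched by NCBI gene ID, a step chosen after the data were seen. Named from each list were the called genes and up to 4 others furthest from 0 in log2 fold change, besides fixed defining markers, the 3 nearest neighbours on each side and the 5 most alike profiles. No sequences are printed and no coordinates are given, since no genome of the build used was analysed here. Replicate numbers 1 to 3 occur in both breeds, but no source ties equal numbers to each other. Alternatives were other pseudocounts, filters, scalings and thresholds, the replicate number as a block, and fits without each library.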

Additional observations from a re-analysis of the deposited data

How the results depend on the processing

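The number of DEGs was 310, and became 199 with a pseudocount of 0.01 and 200 with no filter on low values. Leaving out 1 library gave 79 to 406 DEGs, with 164 without JH1, 150 without JH2, 79 without LD1, 114 without LD2 and 149 without LD3. Of the genes described, 3 were called with all libraries and 2 to 3 when 1 library was left out, where EPCAM was the call that was lost, without JH1, JH2, LD1, LD2 or LD3, as it was with no filter. These genes were chosen on the same values, so nothing is read from calls that held. KRT19, matched by gene ID, was not called, but passed the threshold under quantile normalization, median scaling and the replicate block, and without LD3. For the other duct genes the 2 calls became 0 to 2 when 1 library was left out, with 0 without JH1, LD1 or LD2 and 1 without JH2. For the Notch and YAP genes the range was 0 to 1, the 1 being NOTCH2 without JH3. For the miRNAs, a pseudocount of 5 gave 14 calls in place of 30 and took the miR-200 family from 1 to 0, while leaving out 1 library gave 28 to 38. The split of called miRNAs, 25 lower and 5 higher in JH, was 12 and 8 after quantile normalization and 10 and 10 after median scaling.

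With the replicate number as a block, 253 DEGs were called. Deviations of libraries with the same number correlated at -0.02, 0.05 and 0.18 for mRNA and at -0.07, -0.32 and -0.09 for miRNA, so the numbers were not taken to pair the pigs. Under the block FXYD2 (adjusted p = 0.042 in limma) joined the called duct genes, and CDX2 (adjusted p = 0.070) and LRAT (adjusted p = 0.064) were no longer called.

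SCT moved with the pseudocount, to a fitted log2 fold change of -8.33 at 0.01 and -2.08 at 1. A test on the reads behind the miRNA values (edgeR's quasi-likelihood test) had been planned and was not run, because the lowest value above 0 in each library corresponded to 10 reads, so the recovered reads could not be taken as complete counts. SCT, EPCAM, CFTR and SCTR rest on few reads per library, so differences among their lower values were not detectable at this depth. With 3 pigs per breed, the limma p-values set the breed difference against the spread between pigs within a breed. That spread was moderated with information from all tested genes or miRNAs.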
